A study of Mus musculus with 3 samples.

Results

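In mouse sperm profiled after repeated doxorubicin injections, 10 genes were examined window by window along their length: Manba, Dgki, Lrp6, Lgr6, D8Ertd82e, Pknox1, Fmn1, Echdc3, Dlg1 and Ccdc27. They were selected on the methylation scores of the high dose and control libraries, most of their windows being below control at that dose; no numeric threshold was stated, and their values at that dose are a description. Every 500 bp window annotated to one of these gene symbols was taken once, which gave 80 of the 143198 windows listed. Windows numbered 13 in Manba, 12 in Dgki, 9 each in Lrp6 and D8Ertd82e, 8 in Fmn1, 6 each in Lgr6, Pknox1, Echdc3 and Ccdc27, and 5 in Dlg1.

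All 3 groups were C57BL/6 mice with a labelled age of 14 weeks, injected intraperitoneally 2 times a week for 5 weeks from 8 weeks of age, with cauda epididymal sperm taken 4 days after the last dose. The vehicle control group received saline, the low dose group 0.02 mg/kg and the high dose group 0.2 mg/kg doxorubicin (DXR), with 1 library per group. The labels do not say how many animals gave sperm to a library. The assay, MBD-seq, captures sheared DNA with MBD2, a protein that binds methylated CpG, and sequences it, so that read density follows methylated CpG. No difference below has a replicate check, and none was tested.

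Cytosine methylation in mammals sits mostly at CpG dinucleotides, and the sperm genome is methylated over most of its length, gene bodies included, while CpG-rich promoters are mostly free of it. Doxorubicin is an anthracycline that intercalates into DNA and traps topoisomerase II on it, and proliferating male germ cells are known to be sensitive to it. The genes do not form 1 pathway. Lrp6 and Lgr6 encode receptors of Wnt signalling: LRP6 is the co-receptor that binds Wnt together with Frizzled proteins, and LGR6 binds R-spondins, which enhance the signal. Dgki encodes a diacylglycerol kinase, Dlg1 a membrane-associated scaffold protein of the MAGUK family, and Fmn1 an actin-nucleating formin. Pknox1 encodes a TALE homeodomain transcription factor, Manba the lysosomal enzyme beta-mannosidase, and Echdc3 a member of the enoyl-CoA hydratase family. D8Ertd82e is listed by RefSeq as Prag1, a pseudokinase gene, and Ccdc27 encodes a coiled-coil protein.

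Most of these promoters had no listed window. RefSeq promoters (build GRCm38.p6, the assembly also called mm10; 250 bases before to 50 after a transcript start) were at hand for 7 of the 10 genes, with 11 sequences. Of these, 10 overlapped no listed window. The exception was Ccdc27, whose promoter lies wholly inside the exon 1 window. In Dlg1, the exon 1 window furthest below control began 102 bases past the end of an internal promoter, while the CpG-rich promoter near the gene's start had no listed window nearer than 1685 bases. These 3 promoters are shown 5′ to 3′, with each CpG, the dinucleotide that MBD2 reads when methylated, in capitals.
Ccdc27, chr4:154042628-154042927, minus strand: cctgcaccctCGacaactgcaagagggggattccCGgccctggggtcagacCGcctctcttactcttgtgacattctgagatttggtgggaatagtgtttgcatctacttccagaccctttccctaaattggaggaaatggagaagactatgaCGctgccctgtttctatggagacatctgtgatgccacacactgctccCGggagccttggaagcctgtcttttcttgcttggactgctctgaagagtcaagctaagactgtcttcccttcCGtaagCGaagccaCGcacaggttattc
Dlg1 internal start, chr16:31754100-31754399, plus strand: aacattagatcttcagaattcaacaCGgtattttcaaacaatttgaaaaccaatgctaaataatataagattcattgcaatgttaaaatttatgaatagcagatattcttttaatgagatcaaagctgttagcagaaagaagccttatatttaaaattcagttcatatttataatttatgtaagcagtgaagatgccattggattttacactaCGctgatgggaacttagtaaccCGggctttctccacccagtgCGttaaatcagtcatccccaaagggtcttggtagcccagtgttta
Dlg1 CpG-rich start, chr16:31663685-31663984, plus strand: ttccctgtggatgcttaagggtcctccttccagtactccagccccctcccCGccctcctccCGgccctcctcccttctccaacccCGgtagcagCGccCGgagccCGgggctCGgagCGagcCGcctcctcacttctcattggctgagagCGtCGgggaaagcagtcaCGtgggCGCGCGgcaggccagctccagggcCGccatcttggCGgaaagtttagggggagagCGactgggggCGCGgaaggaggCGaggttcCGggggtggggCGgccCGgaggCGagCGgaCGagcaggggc
The letters CG, which read the same on both strands, occurred 8 times in the Ccdc27 promoter, 4 times in the internal Dlg1 promoter and 27 times in the CpG-rich one. Over 32817 mouse promoters of this length the median was 7, and 94.6% held at least 1. The other promoters without a listed window held 23 CpGs in Manba, 24 in Lgr6, 16 in Dgki and 10 in Echdc3, 21 and 0 in the pair for Fmn1, and 10 and 4 in the remaining pair for Dlg1.

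Windows are described by RMS, the authors' methylation score, which the file headers do not spell out. Where 3 scores of a window follow each other, they run from saline through low to high dose. The change in a window is log2((treated RMS + 0.766)/(control RMS + 0.766)), so that changes of low scores are understated, and a window is called lower at a change of -1 or below, which is 2-fold on this scale. Over the 80 windows the median RMS was 1.66, 1.07 and 0.790, and over all windows it was 1.80, 1.67 and 1.57. At the high dose 78 of the 80 windows were below control, where 60.8% of all windows were, and 20 were lower by the limit, where 2.52% of all windows were. These counts follow from how the genes were picked. With libraries divided by their medians or quantile normalized, 66 and 71 of the 80 were below control, against 46.5% and 48.8% of all windows. The count of 20 depended on the setting: it was 37 with a pseudocount divided by 3, 10 after quantile normalization, 5 with the trend in read density subtracted and 0 with a pseudocount multiplied by 3. The median change was -0.68 (95% order-statistic interval over windows -0.84 to -0.56), against -0.10 over all windows. The interval treats windows as independent, although all share the same libraries and 26 of the 80 lie in runs of adjacent windows. This interval and those below do not measure uncertainty about the dose groups.

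The low dose library was not used to pick the genes, but the control library was, and it enters both comparisons. Of the 80 windows, 66 were below control at the low dose, where 56.7% of all windows were, and 8 were lower by the limit, where 1.24% of all windows were. The median change at the low dose was -0.39 (interval -0.55 to -0.22), against -0.05 over all windows. Fmn1 and Echdc3 had every window below control at this dose, and the other genes had between 1 window (Lgr6, D8Ertd82e and Dlg1) and 3 windows (Manba) at or above it. Set against the low dose, the high dose library, which did serve to pick the genes, was lower in 62 of the 80 windows, with 56.3% over all windows. Between the doses the median was -0.25 (interval -0.34 to -0.075). Past the limit between the doses were 2 windows, in exons of Lrp6 and D8Ertd82e, against 0.33% of all windows.

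**Figure D1:**
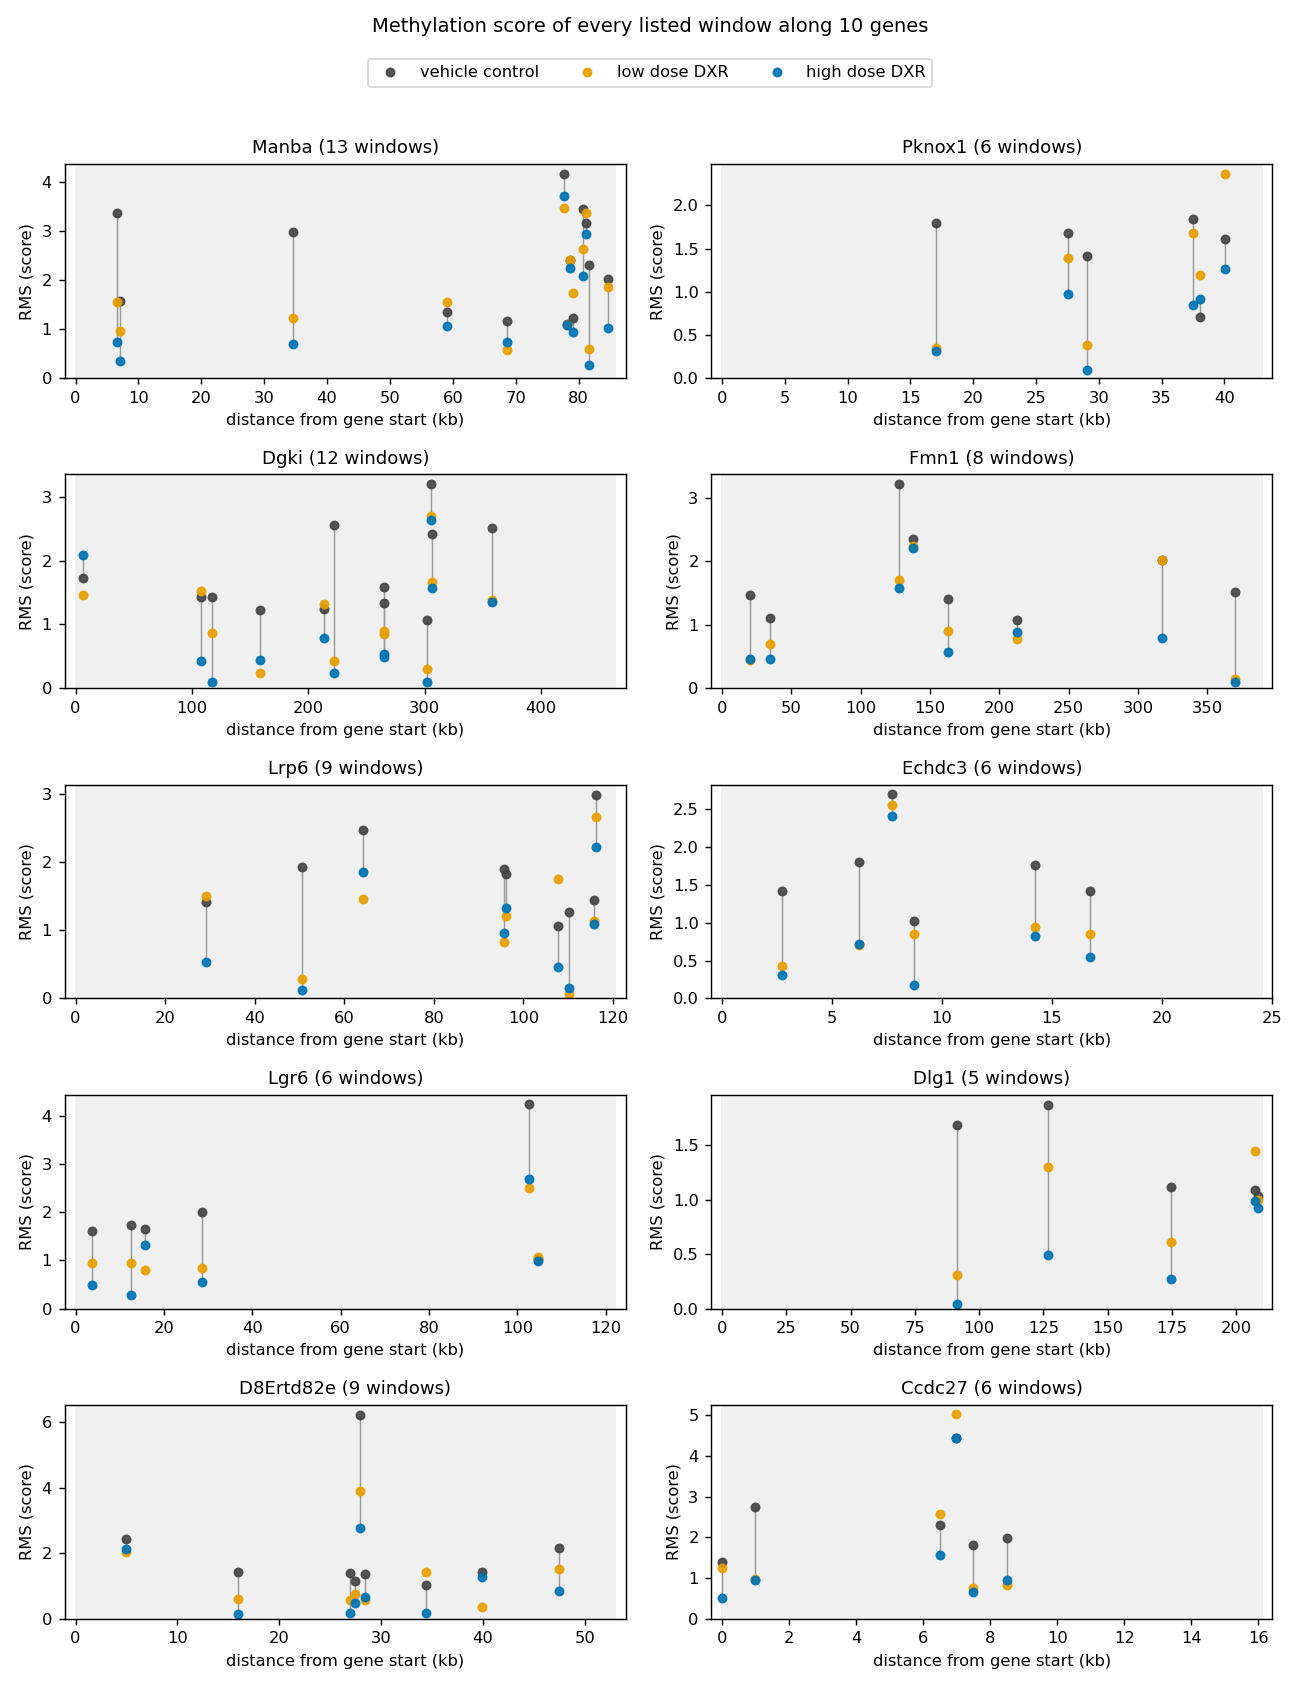
RMS (score) of each listed window against its distance in kb from the start of the gene, for each of the 3 libraries; grey lines join control and high dose values, and the shaded area is the gene. In 78 of 80 windows the high dose point lies below the control point, but the vertical gaps differ within each gene, with changes of -1.58 to -0.017 in Manba.

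The table lists only windows with RMS above 1 in at least 1 library, and this bears on every count here. The listed windows made up 1.03% (Fmn1) to 18.2% (Ccdc27) of the 500 bp windows each gene spans, so the rest of the gene bodies was not analysed here. A window listed through the control library alone lies below control at both doses by that fact. Such windows numbered 37 of 80 in these genes (46.25%), against 14.3% of all windows, and included 17 of the 20 windows lower at the high dose and all 8 at the low dose. Among the 24 windows with RMS above 1 in all 3 libraries, 23 were below control at the high dose and 0 were lower by the limit. Their median change was -0.24 (interval -0.45 to -0.13), while over all windows of that kind 51.8% were below control and the median was -0.01. Among the 41 windows with RMS above 1 in the low dose library, a choice made after seeing the data, 39 were below control at the high dose with a median of -0.38, against 55.1% and -0.04 over all such windows.

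Manba had the most windows, and they were uneven along the gene (ENSMUSG00000028164; chromosome 3, 135485611 to 135571404, plus strand). The window furthest below control lay in exons 4 and 16 of its transcripts, 81.6 kb from the start (135567001 to 135567500). It had RMS 2.31, 0.601 and 0.264, which is a high dose change of -1.58. Near the start of the gene, adjacent intronic windows (135492001 to 135493000) had 3.37, 1.56 and 0.736 and 1.57, 0.950 and 0.339. An intronic window 34.6 kb from the start had 2.98, 1.22 and 0.702. Each of these 4 windows was below control at both doses and lowest at the high one.

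Between these lay a stretch of 4 adjacent Manba windows (135563001 to 135565000) that stayed close to control, with high dose changes of -0.23 to -0.017. The strongest Manba window was the first of them, which overlaps exon 1 of an annotated transcript, with RMS 4.16, 3.47 and 3.71. The second, in exon 2, was nearest to control, with 1.10, 1.08 and 1.08. The other first-exon window (135544501 to 135545000) had 1.34, 1.56 and 1.06. Sheared fragments of about 300 bp can span adjacent windows, yet the window furthest below control stood next to one (135566501 to 135567000) with 3.15, 3.37 and 2.94, a change of -0.08 beside -1.58. The remaining 3 windows of the gene had changes of -0.64 to -0.36. The median change of Manba, -0.36, was the least negative of the 10 genes, and its label as lowered along its length holds for the sign of its 13 windows but not for their size.

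Lrp6 (ENSMUSG00000030201; chromosome 6, 134446476 to 134566913, minus strand) had all 9 windows below control at the high dose and 7 at the low dose. An intronic window 50.7 kb from the start (134516001 to 134516500) had RMS 1.94, 0.280 and 0.123. A second intronic window (134456501 to 134457000) had 1.28, 0.0699 and 0.156. In both, the treated libraries were low at either dose. The strongest Lrp6 window, in exons 11 and 23 of its transcripts (134450501 to 134451000), had 2.998, 2.67 and 2.23, and its neighbour, nearest to control, had 1.45, 1.13 and 1.09. The adjacent windows over exon 1 of an annotated transcript (134470501 to 134471500) had 1.83, 1.22 and 1.33 and 1.91, 0.826 and 0.967. Scores near this exon were thus below control by less than in the intronic pair, and the remaining intronic windows had changes of -0.31 and -0.74. Exon sequence at 134459001 to 134459500 separated the doses, with 1.06, 1.76 and 0.458.

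Lgr6 (ENSMUSG00000042793; chromosome 1, 134983300 to 135105374, minus strand) had 6 windows, 5 of them intronic. The window furthest below control lay 12.6 kb from the start (135092501 to 135093000), with RMS 1.74, 0.941 and 0.273. An intronic window at 135076501 to 135077000 had 2.01, 0.851 and 0.542. In both the high dose score was the lowest, but the strongest window (135002501 to 135003000) had another order, with 4.23, 2.50 and 2.68. The only exonic window (135000501 to 135001000), in exons 6 and 11, had 1.03, 1.06 and 0.984. The other intronic windows had changes of -0.22 and -0.93. Over the gene the median was -0.73 (high dose) and -0.58 (low dose).

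Dgki, the longest gene here at 464 kb (ENSMUSG00000038665; chromosome 6, 36837381 to 37300955, minus strand), held 12 windows, 10 of them intronic. Of all 80 windows, the one furthest below control was intronic and 222 kb from the Dgki start (37078501 to 37079000), with RMS 2.56, 0.432 and 0.240, a change of -1.73. An intronic window at 37183001 to 37183500 had 1.42, 0.866 and 0.0998, so that the low dose library lay between the others. The window nearest the start (37294501 to 37295000), 6.20 kb into the gene, was above control at the high dose, with 1.72, 1.46 and 2.09. The strongest window (36995001 to 36995500) had 3.19, 2.70 and 2.64, a change of -0.22, and the 8 windows not given here had changes of -1.08 to -0.38. Dgki was below control in 11 of 12 windows at the high dose, with a median of -0.73. A Dgki window (36943001 to 36943500) is also annotated to 1700111E14Rik.

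Dlg1 (ENSMUSG00000022770; chromosome 16, 31663443 to 31873356, plus strand) had the most negative median of the 10 genes at the high dose, -0.86 over 5 windows. Its internal exon 1 window (31754501 to 31755000), next to the CpG-poor promoter printed above, had RMS 1.69, 0.310 and 0.0452. The read density of this window in RPM, reads scaled to library size, was 1.52, 0.276 and 0.0216, and the last value is 1 step, the unit of which all RPM values of the high dose library were whole multiples. The strongest window, also exonic (31790001 to 31790500), had 1.87, 1.3 and 0.488. Another, over exon 1 of an annotated transcript (31838001 to 31838500), had 1.12, 0.612 and 0.273. The pair at the far end of the gene was near control at the high dose, and 1 of them was above it at the low dose: an intronic window (31870501 to 31871000) had 1.09, 1.45 and 0.994, and an exonic one (31871501 to 31872000) had 1.03, 0.999 and 0.927. In Dlg1 the low scores thus lay between 91.3 and 175 kb from the start, and 0 of its 5 windows had RMS above 1 in all 3 libraries.

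Fmn1 (ENSMUSG00000044042; chromosome 2, 113327664 to 113716768, plus strand) had 8 windows, all intronic and all below control at both doses. Furthest below control was the window 370 kb from the start (113697001 to 113697500, also annotated to 4930533B01Rik), with RMS 1.52, 0.139 and 0.103. The strongest window (113455001 to 113455500) had 3.22, 1.70 and 1.59, a change of -0.76, while a window further on (113465001 to 113465500) had 2.35, 2.24 and 2.21. The treated libraries were alike in these windows, but at 113645001 to 113645500 the scores were 2.03, 2.02 and 0.800. The other 4 windows had changes of -0.87 to -0.16.

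D8Ertd82e (ENSMUSG00000050271; chromosome 8, 36094827 to 36147787, plus strand) held the strongest window of the 10 genes, in a run of 4 adjacent intronic windows (36121501 to 36123500). This window (36122501 to 36123000) had RMS 6.22, 3.90 and 2.76, a change of -0.99, and all 4 windows of the run had changes between -1.18 and -0.56. The other runs of 3 or more windows, in Manba and Ccdc27, each held a window with a change of -0.08 or nearer to 0. Furthest below control was 36110501 to 36111000, with 1.43, 0.597 and 0.138. Exon 4 sequence (36129001 to 36129500) had 1.02, 1.44 and 0.175, whereas an intronic window at 36134501 to 36135000 had 1.42, 0.348 and 1.27. The doses thus ranked in opposite order in these last windows, and the remaining windows had changes of -0.14 and -0.85.

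Pknox1 (ENSMUSG00000006705; chromosome 17, 31564722 to 31607693, plus strand) had its lowest high dose scores 17.0 and 29.0 kb from the start. The window at 29.0 kb (31593501 to 31594000), intronic, had RMS 1.41, 0.387 and 0.0904. The exon 2 window at 17.0 kb (31581501 to 31582000) had 1.80, 0.348 and 0.316. Between them, an exonic window (31592001 to 31592500) was less far below control, with 1.69, 1.40 and 0.977. Toward the 3′ end the scores were not low at the low dose: the window over exons 8 to 10, which also overlaps exon 1 of an annotated transcript (31602501 to 31603000), had 0.702, 1.20 and 0.922, and the next exonic window (31604501 to 31605000) had 1.61, 2.36 and 1.27. The strongest control score was at 31602001 to 31602500, with 1.84, 1.68 and 0.848. The median of the gene was -0.59 (high dose) and -0.14 (low dose), and the latter was 0.0093 once the trend in read density was subtracted.

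Echdc3 (ENSMUSG00000039063; chromosome 2, 6188465 to 6212994, minus strand) had 6 windows, all also annotated to A230108P19Rik, so that they cannot be assigned to 1 of these genes. Furthest below control was the window nearest the start (6210001 to 6210500), with RMS 1.41, 0.424 and 0.311. The window over exon 1 of an annotated transcript (6196001 to 6196500) had 1.42, 0.855 and 0.551. In contrast, the strongest window (6205001 to 6205500) stayed near control, with 2.70, 2.56 and 2.41. The other 3 windows had changes of -0.92 to -0.67.

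Ccdc27 (ENSMUSG00000039492; chromosome 4, 154026644 to 154042745, minus strand) was the shortest gene and had its 6 windows within 8.49 kb of the start. The exon 1 window, which holds the promoter printed above (154042501 to 154043000), had RMS 1.40, 1.24 and 0.503, so that the low dose library was near control (-0.11) and the high dose library was not (-0.77). The exon 2 window (154041501 to 154042000) was furthest below control, with 2.74, 0.967 and 0.949. The strongest window, over exon 8 (154035501 to 154036000), had 4.45, 5.02 and 4.43, and was thus level with control at the high dose. Its neighbours had 1.80, 0.763 and 0.652 on one side and 2.31, 2.56 and 1.56 on the other, and the remaining window had a change of -0.67. Where all 3 libraries had RMS above 1, in 2 windows of Ccdc27 and 1 of Pknox1, the low dose medians were 0.13 and 0.39.

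By annotation, 31 of the 80 windows touched an exon and 49 were intronic. For intronic windows the high dose median was -0.76 (interval -0.92 to -0.67), and for exonic windows -0.45 (interval -0.73 to -0.23). Lower by the limit were 15 intronic (30.6%) and 5 exonic windows (16.1%), against 2.52% of all windows. At the low dose the medians were -0.55 and -0.18. Listed through the control library alone, and so below control at both doses by that fact, were 28 intronic (57.1%) and 9 exonic windows (29.0%). The median of mean RPM over the 3 libraries was 1.11 in the intronic and 1.42 in the exonic windows. The part of these gaps in the difference was not tested. First-exon windows numbered 9, in Manba, Lrp6, Dlg1, Pknox1, Echdc3 and Ccdc27, with a high dose median of -0.63. These overlap exon 1 of any annotated transcript and, apart from that of Ccdc27, overlapped no promoter sequence at hand.

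**Figure D2:**
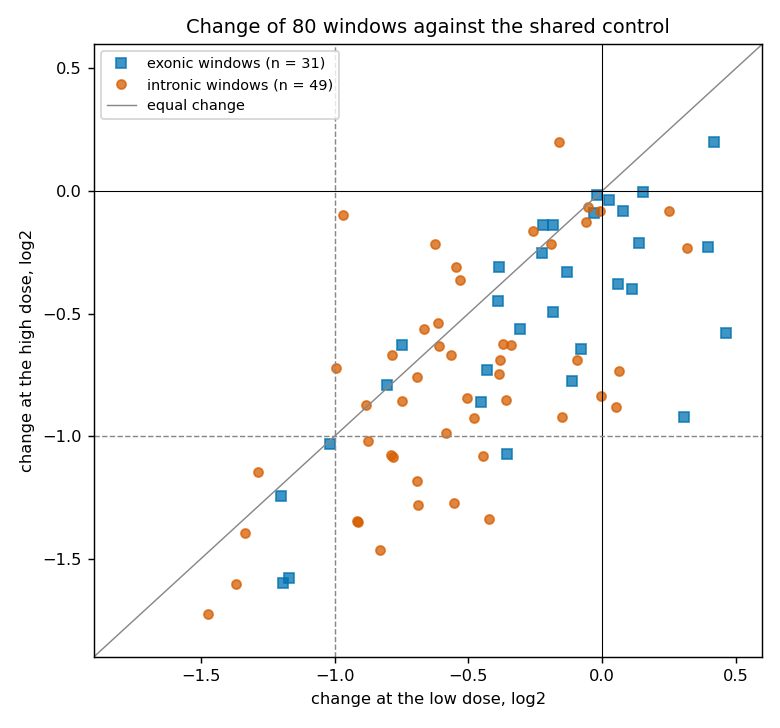
Change of the 80 windows (log2) at the low dose, on the x axis, and at the high dose, on the y axis, by annotation; dashed lines mark the limit of -1. The control library enters both axes. Points below the line of equal change, 62 of 80, had a lower score at the high dose than at the low dose.

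The windows of these genes were of low read density. Median control RPM was 1.72, against 2.42 over all windows, and 61 of the 80 windows were at or below that level. Those 61 had a high dose median of -0.76, and the 19 above it -0.36. Over all windows the medians below and above that level were -0.22 and -0.03, so the more negative values at low density are shared with the rest of the table. The part of read density in the values of these genes was not tested. Mean RPM, used next, includes the high dose library, so a fall at that dose also lowers it. The decile, trend and rank correlation values below are thus partly tied to the change by construction. In the lowest decile of mean RPM over all windows, the 21 windows of these genes had a median of -1.08, against -0.51 for the decile. In the sixth decile, by contrast, 7 windows had a median of -0.083 against -0.11, and 3 of them were below the decile's median. In total 69 of the 80 windows were below the median of their decile. The RMS/AMS factor was taken as a stand-in for CpG content, which was not checked against CpG counts of the windows. The median of all windows in the same RPM decile and factor class was then subtracted. This left the 80 windows with a median of -0.40 and 5 lower by the limit. Over all windows the median was 0, by construction, and 0.316% were lower. Across these 80 windows, which share their libraries, Spearman's rho between mean RPM and the high dose change was 0.63, and over all windows it was 0.43. The factor had a median of 2.3 over the 80 windows and 2.6 over all windows, and gene medians ran from 1.8 (Fmn1) to 2.8 (Manba). Its rho with the high dose change was 0.21 over the 80 windows and 0.24 over all windows.

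**Figure D3:**
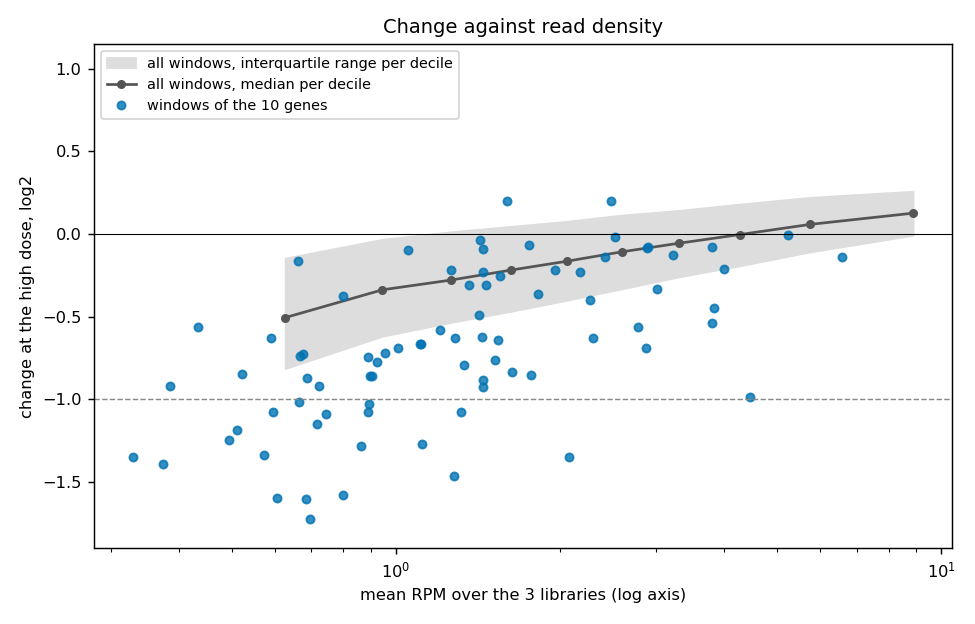
Change at the high dose (log2) against mean RPM over the 3 libraries (log axis); the grey line and band give the median and interquartile range of all windows per decile of mean RPM. Of the 80 windows of the 10 genes, 69 lie below the median of their decile.

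Against other genes, the 10 stood in the lower part of the range, as their choice implies. Of the 5157 genes with at least 5 windows, 243 (4.71%) had every window below control at the high dose, and 8 of the 10 genes were among these. Ranked from the most negative median, Dlg1 stood at 4, D8Ertd82e at 5, Echdc3 at 13, Dgki at 17, Lgr6 at 18, Fmn1 at 19, Ccdc27 at 21, Pknox1 at 63, Lrp6 at 72 and Manba at 569. At the low dose, which shares the control library, the ranks ran from 17 (Lgr6) and 18 (D8Ertd82e) to 866 (Manba) and 1685 (Pknox1). The sum of RMS over a gene's listed windows at the high dose was 40.02% (Dlg1) to 61.7% (Ccdc27) of that in the control library.

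**Figure D4:**
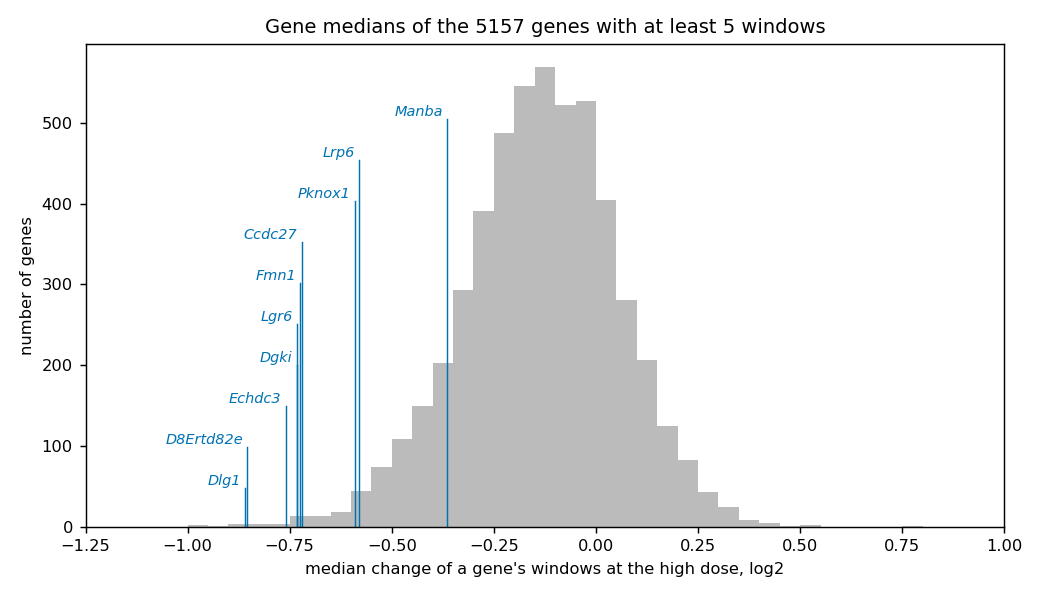
Number of genes by the median change of their windows at the high dose (log2), for the 5157 genes with at least 5 windows; blue lines mark the 10 genes and their height has no meaning. Their medians run from -0.86 (Dlg1) to -0.36 (Manba), and the median over all these genes was -0.13.

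Windows outside the genes were next examined, since the rule did not use them. Within 100 kb of the gene ends lay 194 listed windows. Of these, 140 (72.2%) were below control at the high dose, where 60.8% of all windows were. Lower by the limit were 6 (3.09%), near the 2.52% over all windows. The median change of the 194 windows was -0.18 (interval -0.25 to -0.13) at the high dose and -0.12 at the low dose. Both were closer to all windows (-0.10 and -0.05) than to the genes. The choice of the genes, but not of the flanks, on low high dose values implies such a gap. Windows listed through the control library alone made up 32 (16.5%) of the flanking windows, against 37 (46.25%) of the gene windows. Lrp6 was flanked by 12 windows that were all below control at the high dose, with a median of -0.54, next to -0.58 within the gene. Of these, 5 were listed through the control library alone, and the other 7 had a median of -0.43. The 12 included windows of Bcl2l14, a BCL2 family gene, and of Mansc1, and a window of no annotated gene 4.98 kb past the 3′ end (134441001 to 134441500) with RMS 1.41, 1.01 and 0.497. Dlg1 differed, with a median of -0.11 over 30 flanking windows, 18 of them below control. Just past its 3′ end, 3 windows annotated to no gene within 3.65 kb had changes of -0.05 to 0.25 at the high dose.

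The 6 flanking windows lower by the limit, a share near the 2.52% of all windows, lay beside Manba, D8Ertd82e and Ccdc27. Those beside Manba were in Nfkb1, which encodes a subunit of the transcription factor NF-kappaB, 17.6 and 90.6 kb beyond the gene, with RMS 2.17, 0.849 and 0.594 and 1.98, 0.974 and 0.427. Those beside D8Ertd82e were in Lonrf1, and one (36219501 to 36220000) had 1.16, 0.130 and 0.130. Beside Ccdc27 they were in Dffb, which encodes the nuclease of apoptotic DNA fragmentation (3.94, 3.06 and 1.57), and in a window shared by Lrrc47 and 1190007F08Rik (3.43, 1.40 and 1.19). The adjacent Dffb window (153965001 to 153965500) was above control, with 3.56, 4.59 and 5.06. The windows past the limit in Nfkb1 and Lonrf1 were listed through the control library alone. Over the 10 genes, the flank medians at the high dose ranged from -0.54 (Lrp6) and -0.38 (Dgki) to -0.13 (Manba and D8Ertd82e) and -0.11 (Dlg1).

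**Figure D5:**
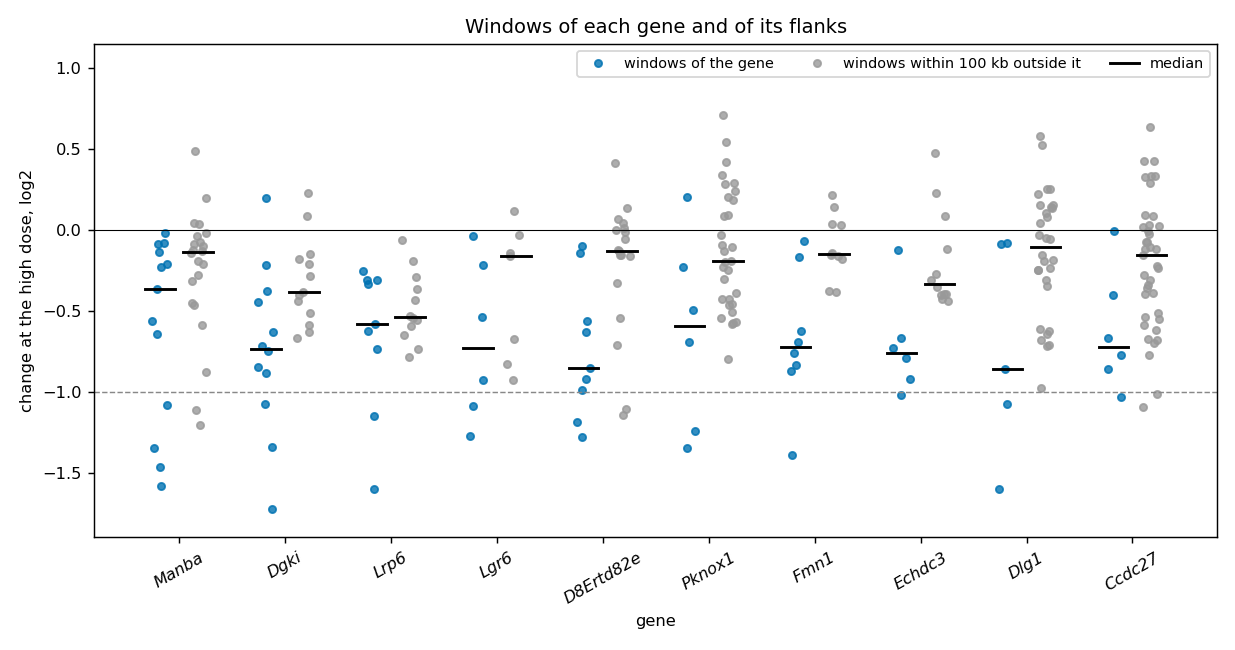
Change at the high dose (log2) of each window of a gene (blue) and of each listed window within 100 kb outside it (grey), with medians as black bars. The flank median lies above the gene median for each of the 10 genes, nearest to it in Lrp6 (-0.54 against -0.58). The genes, but not the flanks, were picked on this change, which implies such a gap.

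Close relatives of the 10 genes were taken as 6 lists, whose high dose medians ran from -0.20 to -0.06. The lists held 87 genes, of which 63 had a window. In the Wnt and R-spondin list (15 of 25 genes, 82 windows) 54 windows (65.9%) were below control at the high dose, where 60.8% of all windows were, 0 were lower by the limit and the median was -0.09. Lrp5, the paralog of Lrp6, had 19 windows with a median of -0.03, and its exonic window furthest below control had RMS 3.10, 1.19 and 1.27. The paralogs of Lgr6 were below control in each window at the high dose, with a median of -0.38 over 7 windows in Lgr5 and -0.42 over 2 in Lgr4. Their low dose medians were -0.15 and 0.10. Znrf3, which encodes a ubiquitin ligase that removes Wnt receptors, had an exonic window with 2.27, 1.51 and 0.777.

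Diacylglycerol kinases (7 of 9 genes, 71 windows) had a median of -0.06 and 3 lower windows, 2 of them in Dgkh, where an intronic window had RMS 2.07, 0.847 and 0.282. Among MAGUK scaffold genes (10 of 11, 106 windows) the median was -0.08, with 0 lower windows and 1 higher, in Tjp3, and Dlg5 and Dlg2 had medians of -0.14 and -0.11. Mpp2 stood lower, with its 6 windows below control at the high dose and a median of -0.49. Formin genes (12 of 12, 91 windows) had a median of -0.20 and 4 lower windows, in Daam1, Diap3 and Fmnl2. Fmnl2 had a median of -0.64 over 12 windows at the high dose and -0.52 at the low dose, more negative than Manba, Lrp6 and Pknox1. Daam1, a formin of Wnt planar polarity signalling, had 2 of these among 14 windows, the one further below control with 1.26, 0.558 and 0.110. TALE homeodomain genes (9 of 16, 60 windows) had a median of -0.18. Meis2 had 2 windows, both lower by the limit, while Pknox2, the paralog of Pknox1, had a median of 0.04. Lysosomal glycosidase genes (10 of 14, 74 windows) had a median of -0.11 and 0 lower windows. Man2b1 and Man2b2 had medians of -0.44 over 5 windows and -0.40 over 9, more negative than Manba (-0.36). Every Man2b1 window was below control at both doses. Low dose medians were -0.54 in Man2b1 and -0.09 in Man2b2, while Gaa had a high dose median of 0.06. The counts of lower windows in these lists stand beside 2.52% of all windows.

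The paternally methylated loci H19, Meg3 and Rasgrf1, which carry methylation in sperm, had windows of RMS up to 5.58, 3.01 and 4.68 in the control library. These values cannot check the tissue label, because every listed window had RMS above 1 in some library and no other tissue was measured. The libraries' summed RPM over listed windows ranged from 457218 to 482450. Read numbers per window are not stated, so that no counting interval could be given and the counting error of single windows was not estimated. In RPM steps, some windows far below control held few at the high dose. The counts were 71, 14 and 1 in Dlg1 (31754501 to 31755000) and 35, 10 and 2 in Pknox1 (31593501 to 31594000). In Fmn1 (113697001 to 113697500) they were 44, 6 and 3, while a Manba window (135492001 to 135492500) held 106, 54 and 23.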

How the data were processed

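Sperm DNA of 3 groups was enriched with MBD2 and sequenced, with 1 library per group. The authors deposited 1 table of 500 bp windows, annotated to Ensembl transcripts (2013, month 4, day 3) with 500 bp as the reach of upstream and downstream, per the file headers; per the submitters' processing notes, the build was mm10. For the aligner and read filters nothing is stated: not given in the sources used here. Deposited RPM values are, by their name in the file headers, reads scaled to library size, and the deposited scores RMS and AMS are measures of methylation that the headers do not define. The authors' ratio of low dose to control RMS was not used. The table's 297037 lines were reduced to 143198 windows; tested on the values, each had RMS above 1 in at least 1 library.

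Changes used a pseudocount of 0.766, the 10th percentile of RMS above 0, with Python 3.11.15, numpy 2.4.6, pandas 2.3.3 and scipy 1.17.1; the steps were tested on simulated data. With 1 library per group there was no test and no p-value. The genes and gene lists were chosen with earlier results of these data known. Windows named were, per gene, those with the largest and smallest change, the strongest control score and a first exon, and for relatives at most 4 genes per list, of which 1 is not reported here; other windows, and Lgr4 and Lgr5, were named after their values were seen. Gene ends and promoters came from RefSeq (GRCm38.p6). RPM values were whole multiples of 1 step per library (100% within 0.02 of a step), and whether a step stands for 1 read is not stated. Alternatives covered the pseudocount, scaling, trend, measure, filter, limit and adjacent windows.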

Additional observations from a re-analysis of the deposited data

How the results depend on the processing

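With 1 library per group, no replicate could be left out. No paired analysis was possible because each group held 1 library. The counts of 78 (high dose) and 66 (low dose) windows below control cannot change with the pseudocount, which leaves the sign of each change as it is. Among the other alternatives that kept all windows, the lowest counts were 66 (high dose) and 55 (low dose). The 66 came with library medians, against 46.5% of all windows, and with the trend in read density subtracted, against 49.99%. The 55 came with that trend subtracted, against 49.99% of all windows at the low dose. Dividing by library medians and quantile normalization moved the high dose median of all windows from -0.10 to 0.04 and 0.01, and that of the 80 windows to -0.57 and -0.47. The pseudocount divided by 3 gave a high dose median of -0.93, with 37 windows lower at the high dose and 20 at the low dose, against 8.50% and 4.88% of all windows. Multiplied by 3 it gave -0.38 and 0 lower windows at either dose, against 0.0105% and 0.00349%. Quantile normalization left 10 lower windows at the high dose (0.693% of all windows). With the trend in RPM and in the factor removed, there were medians of -0.40 (high dose) and -0.22 (low dose) with 5 and 1 lower windows (0.316% and 0.239% of all windows). A 1.5-fold limit gave 47 and 28, against 13.6% and 8.73% of all windows. By construction, filters left fewer windows: of the 24 with RMS above 1 in all 3 libraries, 23 and 19 were below control and 0 were lower at either dose (0.281% and 0.134% of all such windows), with medians of -0.24 and -0.17. Of the 41 with RMS above 1 in the low dose library, chosen after seeing the data, 39 and 27 were below control and 3 and 0 lower (1.02% and 0.129% of all such windows), with medians of -0.38 and -0.093. Averaging adjacent windows, also added later, gave 63 of 64 below control at the high dose. Gene medians changed sign only at the low dose, for Pknox1 (0.0093 after the trend, 0.39 and 0.15 under the filters on all 3 libraries and on the low dose library) and Ccdc27 (0.13 and 0.11 under these filters); the cause was not tested. Flanks beyond exons and introns held none of the 80 windows, so leaving them out changed nothing.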
